A study of Chromochloris zofingiensis with 18 samples.

Results

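The comparison described here is that of *Chromochloris zofingiensis* cultures after 12 h in medium without sulfur (SS-12 h) with the same strain, ATCC30412, at the start of the starvation (0 h). Its members were chosen by sample title: 3 replicates titled as 12 h of starvation and 3 titled as 0 h, which are 6 of the 18 samples in the series, and the test ran over the 15220 genes that any of the 18 samples listed. Cells of both groups had been grown phototrophically in column photobioreactors under continuous light with CO2-enriched air, in Kuhl medium before the transfer, and polyadenylated RNA was sequenced. No culture kept for 12 h in fresh medium with sulfur is among the RNA samples, so the loss of sulfur, the transfer and the elapsed time cannot be told apart in any value below. The other samples were taken at 6, 24 and 48 h of starvation and 12 h after sulfur was returned, and SS-6 h and SS-24 h are used to place the 12 h values.

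Sulfur enters a green alga as sulfate and is built into cysteine and methionine, and through them into every protein, into S-adenosylmethionine, the cell's methyl donor, and into glutathione and the sulfolipid of the thylakoid. Algae short of sulfur are known to reduce their photosynthetic apparatus, which is rich in protein, and many of them store carbon as starch and triacylglycerol (TAG). *C. zofingiensis* is studied for TAG and for the ketocarotenoid astaxanthin.

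Values are FPKM, reads scaled to the length of the transcript and to the mapped reads of the library, and a log2 change is the difference of mean log2(FPKM + 1), SS-12 h minus 0 h, with its standard error (SE). This scale understates the changes of genes near 0. A gene is called higher or lower, and is said to have risen or fallen, where the log2 change was at least 1 in size and limma's Benjamini-Hochberg adjusted p was at most 0.05. Mean FPKM is given with its SD over the 3 replicates of a group. The replicates are described as biological replicates, but the labels do not say whether they were separate cultures. The SEs and p-values rest on the spread between these replicates, pooled over all 6 groups of the series.

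After 12 h, 1129 genes (7.42% of those tested) were called higher and 1813 (11.9%) lower. An adjusted p of at most 0.05 without regard to size was reached by 8903 genes (58.5%). In 11025 genes (72.4%) the 3 SS-12 h values did not overlap the 3 values at 0 h, so a lack of overlap by itself does little to set a gene apart. Changes of at least 2 on the log2 scale were called upward in 166 genes and downward in 438, and changes of at least 4 upward in 9 and downward in 21. The replicates were close, with r of 0.994 to 0.996 between SS-12 h samples and 0.992 to 0.995 between 0 h samples on the log2 scale, against 0.91 to 0.927 between the groups. The direction of the calls differed with the level of the genes. Of the 2147 genes with a mean of 1 to 10 FPKM over the 6 samples, 84 rose and 693 fell, whereas of the 141 genes over 1000 FPKM, 68 rose and 19 fell. Cytosolic ribosomal proteins made up 61 of those 141, and of the other 80 genes 14 rose and 19 fell. Under quantile normalization, which gives all samples the same distribution of values, the counts were 233 and 310 in the lower class and 17 and 23 in the higher one. The difference in the direction of the calls therefore did not hold there, while the median log2 changes were -0.01 in the lower class and 0.46 in the higher one.

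**Figure D1:**
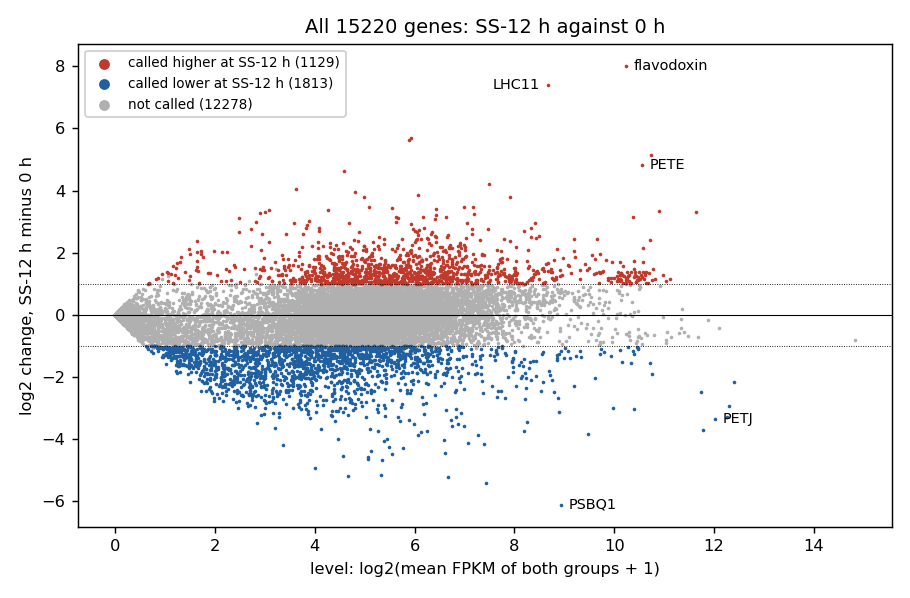
Log2 change, SS-12 h minus 0 h, of each of the 15220 genes against its level, the log2 of the mean FPKM of both groups plus 1. Each point is 1 gene. The 1129 genes called higher are red, the 1813 called lower are blue and dotted lines mark log2 changes of 1 and -1. The compact red group at the right, between levels of about 10 and 11, holds many of the ribosomal protein genes, and blue points outnumber red ones at low levels.

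The summed FPKM lay between 992232 and 1017740 at SS-12 h and between 924660 and 977297 at 0 h, with 14521 to 14551 and 14682 to 14697 genes listed. Read counts are not in the tables. Relative depths were estimated from the most common ratio of low values to those of the same genes in 0 h replicate 1. They were 0.938 to 0.963 at SS-12 h and 0.949 to 1.0 at 0 h, with 0 h replicate 1 set to 1. The 72 genes encoded in the chloroplast, whose transcripts mostly lack the poly-A tail used for purification, summed to 52.5, 47.4 and 78.9 FPKM in the SS-12 h samples, against 18.7, 25.2 and 15.8 FPKM in the 0 h samples. These sums were higher in every SS-12 h sample, and the part of poly-A selection in the other results was not tested. In RNA from whole cultures, fewer cells expressing a gene and less RNA of it per cell cannot be told apart. Names were available for 629 genes, mostly from a table of the 592 genes with the highest values in 0 h replicate 1, all at or above 205.77 FPKM. The lists built from that table therefore hold genes that were abundant at the start. Genes below that level had names from other tables of the study, among them its list of large SS-6 h changes against the same 0 h samples. Rises and falls named through that list are no unbiased sample of the genes that were low at 0 h. Of all 592, 107 (18.1%) rose and 116 (19.6%) fell.

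The largest rises of named genes were in proteins of photosynthetic electron transport and light harvesting. Of these, the flavodoxin gene, LHC11 and PETE were named through the study's list of large SS-6 h changes against the same 0 h samples. Their rises are therefore no independent evidence of direction. The gene described as flavodoxin I (Cz14g01090) encodes a flavin protein that carries electrons in place of ferredoxin. It had 2469, 2479 and 2239 FPKM in the SS-12 h samples and 7.14, 7.82 and 10.1 FPKM in the 0 h samples. The lowest SS-12 h value lay far above the highest at 0 h. The means differed 287-fold, and the log2 change was 8.01 ± 0.20 (adjusted p = 3.59e-13, limma). The gene with the neighbouring ID, LHC11 (Cz14g01080), a protein of the photosystem I light-harvesting complex, had 802, 893 and 722 FPKM at SS-12 h and 3.05, 3.70 and 4.64 FPKM at 0 h. Its means differed 212-fold, with a log2 change of 7.40 ± 0.14 (adjusted p = 1.44e-14). The tables give no coordinates, so the distance between these genes is not known here. PETF (Cz07g28150), the ferredoxin with a name in the tables, averaged 2452 ± 187 FPKM at SS-12 h and 2712 ± 131 FPKM at 0 h and was not called (adjusted p = 0.477). FNR (Cz02g17180), the reductase that passes electrons to NADP+, averaged 1388 ± 83.4 FPKM at SS-12 h and 813 ± 43.3 FPKM at 0 h, a log2 change of 0.77 ± 0.14, under the size needed for a call.

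Another pair of consecutive IDs moved in opposite directions. Plastocyanin, a copper protein, and cytochrome c6, a haem protein, both carry electrons from the cytochrome b6f complex to photosystem I, and in some algae one can take the place of the other. PETE (Cz01g35130), the plastocyanin gene, had 2872, 2801 and 3039 FPKM at SS-12 h and 90.8, 96.3 and 116 FPKM at 0 h, a log2 change of 4.84 ± 0.19 (adjusted p = 3.77e-11). PETJ (Cz01g35120), the cytochrome c6 gene, had 845, 692 and 682 FPKM at SS-12 h and 7198, 7402 and 8187 FPKM at 0 h, a log2 change of -3.36 ± 0.25 (adjusted p = 1.98e-08). The PETE level was therefore above that of PETJ in each SS-12 h sample and below it in each 0 h sample, on the per-length FPKM scale. PETJ was the only one of the 7 genes named with PET symbols or as FNR in the table of abundant genes to be called. The other 6, ferredoxin, FNR and 4 genes of the cytochrome b6f complex, had log2 changes of at most 0.77 in size.

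**Figure D2:**
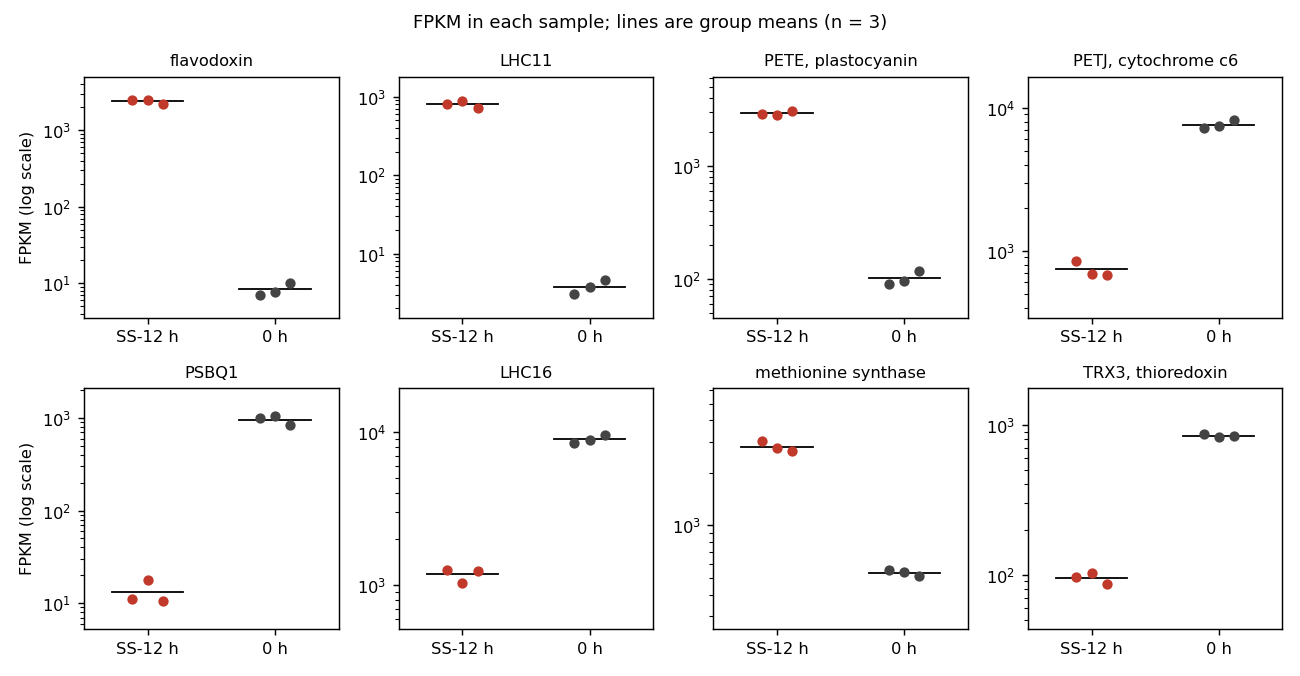
FPKM of 8 genes in each of the 3 SS-12 h samples (red, left) and 3 samples at 0 h (grey, right), on a log axis. Each point is 1 sample and each line a group mean. Flavodoxin, LHC11, PETE and methionine synthase are higher in every SS-12 h sample, and PETJ, PSBQ1, LHC16 and TRX3 are lower in every SS-12 h sample.

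Antenna genes that were abundant at 0 h were lower or not called. Of the 16 abundant genes with LHC symbols, which encode the chlorophyll-binding proteins of both photosystems, 10 fell, none rose and all had a negative log2 change, with a median of -1.11 against -0.06 over all genes. LHC11 is not among the 16, since its level at 0 h was too low for the table they were taken from, and antenna genes that were low at 0 h were not counted. As the 16 were kept for a high value in 0 h replicate 1 and genes low at 0 h were left out, the count stands beside the 19.6% of all 592 genes of that table that fell. Together the 16 held 1.74, 1.53 and 1.75% of the summed FPKM in the SS-12 h samples, against 5.49, 6.0 and 6.09% at 0 h. The largest falls were in antenna proteins of photosystem II. LHC17 (Cz07g02110) had 960.4, 846 and 899 FPKM at SS-12 h and 7594, 9260.3 and 10079 FPKM at 0 h (log2 change -3.31 ± 0.20, adjusted p = 1.99e-09). LHC16 (Cz13g03240) had 1249, 1035 and 1244 FPKM at SS-12 h and 8465, 8837 and 9653 FPKM at 0 h (log2 change -2.94 ± 0.22). LHC19 (Cz15g09060) and LHC18 (Cz07g02100) followed with log2 changes of -2.49 ± 0.22 and -2.17 ± 0.20. These 4 genes may share reads if their sequences are alike, which was not examined here. The smallest change was that of LHC20 (UNPLg00080), which averaged 2181 ± 83.9 FPKM at SS-12 h and 3188 ± 52.5 FPKM at 0 h and was not called. LHC7 (Cz15g17110), an antenna protein of photosystem I, had a log2 change of -1.54 ± 0.15.

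For the photosystems themselves, of 9 genes with PSB symbols, subunits of photosystem II, 1 fell and none rose (median log2 change -0.65), and of 10 with PSA symbols, subunits of photosystem I, 2 fell and none rose (median -0.72), beside 19.6% falls in the table. Under quantile normalization 5 of the 10 PSA genes fell. The 1 fall in photosystem II was the largest of all named genes. PSBQ1 (Cz05g13170), an extrinsic protein of the oxygen-evolving complex, had 11.03, 17.6 and 10.6 FPKM at SS-12 h and 1005, 1041 and 834 FPKM at 0 h. The mean at 0 h was 73.4-fold that at SS-12 h, and the log2 change was -6.12 ± 0.34 (adjusted p = 8.84e-10). The second gene of this name, PSBQ2 (Cz05g09100), averaged 1707 ± 199 FPKM at SS-12 h and 2782 ± 277 FPKM at 0 h (log2 change -0.71 ± 0.16), and PSBO (Cz16g19040), of the same complex, averaged 2195 ± 192 FPKM at SS-12 h and 3539.6 ± 84.4 FPKM at 0 h. Neither was called. In photosystem I, PSAN (Cz17g10010) had a log2 change of -2.03 ± 0.18 and PSAG (Cz06g31280) one of -1.12 ± 0.15. The gene with the highest FPKM in all 6 samples, RBCS (Cz17g13100), the small subunit of the CO2-fixing enzyme Rubisco, averaged 21185 ± 2137 FPKM at SS-12 h and 37344 ± 6057 FPKM at 0 h, a log2 change of -0.81 ± 0.33 (adjusted p = 0.0449) that was too small for a call. None of 12 abundant genes of the carbon fixation cycle was called in either direction (median log2 change 0.12, range -0.81 to 0.6). Limma's adjusted p was at most 0.05 in 6 of them, with changes too small for a call. Its unadjusted p was under 0.05 upward in 5 and downward in 3. None of 3 genes of the chloroplast ATP synthase was called, with 1 at an adjusted p of at most 0.05 but too small a change.

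The published category lists for photosynthesis overlap with these groups and were counted in the same way. The antenna list, chosen by the study on the comparison of sulfur return with 48 h of starvation, was the same 16 genes. Of the photosystem I list 8 of 20 were lower, of the light reaction list 10 of 26, and of the plastoglobule list, which was chosen on the SS-6 h samples against the same 0 h samples and so is no independent evidence, 11 of 22 were lower and 1 higher. Over all genes, 11.9% were called lower and 7.42% higher. Of 3 early light-induced proteins, which bind pigments under light stress, only ELIP6 (Cz12g27130) was called. It had 12.9, 11.9 and 15.5 FPKM at SS-12 h and 0.51, 0.72 and 0.21 FPKM at 0 h (log2 change 3.29 ± 0.18, adjusted p = 7.75e-10).

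In contrast to the antenna genes, genes listed for the biosynthesis of tetrapyrroles, the ring compounds that become chlorophyll and haem, were higher or not called. Of 22 genes of this list, chosen by the study on samples other than these 6, 11 rose and none fell, beside 7.42% and 11.9% of all genes. The median log2 change of the list was 0.97. The largest rise, in UNPLg00178, was at low levels, with 26.8, 23.01 and 29.3 FPKM at SS-12 h and 6.10, 5.32 and 4.27 FPKM at 0 h (log2 change 2.14 ± 0.12). A more abundant gene, also without a description, Cz02g24270, had 129, 129.8 and 131 FPKM at SS-12 h and 31.5, 32.3 and 36.2 FPKM at 0 h (log2 change 1.94 ± 0.19, adjusted p = 4.73e-07). UNPLg00023 averaged 138 ± 4.13 FPKM at SS-12 h and 33.3 ± 0.36 FPKM at 0 h (log2 change 2.02 ± 0.14). The SS-12 h samples of the 3 genes were all above the 0 h samples, and the groups did not overlap in 72.4% of all genes. Some members with neighbouring IDs had nearly equal changes, and whether their sequences are alike was not examined here. The list also holds PSBX, a subunit of photosystem II. Outside it, UROD2 (Cz12g01050), a uroporphyrinogen decarboxylase of the same pathway, had 94.5, 69.5 and 89.5 FPKM at SS-12 h and 6.44, 7.47 and 6.44 FPKM at 0 h (log2 change 3.45 ± 0.40, adjusted p = 3.00e-06).

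Genes for making proteins rose as a broad group. Of 73 cytosolic ribosomal proteins in the table of abundant genes, 65 rose and none fell, beside 18.1% and 19.6% of all 592 genes there. All 73 had a positive log2 change, with a median of 1.22 and a range of 0.32 to 1.73. They held 12.59, 11.86 and 13.29% of the summed FPKM at SS-12 h, against 5.42, 5.56 and 6.41% at 0 h. The gene for protein S4e of the small subunit (Cz06g06080) had 2129, 1929 and 2165 FPKM at SS-12 h and 554, 624 and 708 FPKM at 0 h (log2 change 1.73 ± 0.21, adjusted p = 5.34e-06), and those for S13e (Cz07g16040) and L26e (Cz06g24050) had log2 changes of 1.71 ± 0.14 and 1.69 ± 0.21. The count depended on scaling: under quantile normalization 11 of the 73 were called higher and none lower, with a median of 0.78, whereas median-ratio scaling called 67 and rescaling to TPM 56. Ribosomal proteins of plastid or bacterial type had smaller values, with 1 of 13 called higher and a median of 0.66.

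Genes of ribosome assembly and of translation initiation rose too. Of 21 genes listed for translation initiation factor activity 18 rose (median log2 change 1.77), of 13 in the large preribosome list all 13 (median 1.48), of 13 in the nucleolar list 11 (median 2.08) and of 27 in the small subunit biogenesis list, which also holds ribosomal proteins, 21 (median 1.23). None of their members fell. Of all genes, 7.42% were called higher and 11.9% lower. Initiation factor 4A (Cz09g30170), the RNA helicase that unwinds messages for the ribosome, had 809, 797 and 838 FPKM at SS-12 h and 279, 266 and 267 FPKM at 0 h (log2 change 1.58 ± 0.08, adjusted p = 6.04e-10). Initiation factor 5A (Cz03g05070) had a log2 change of 1.25 ± 0.08, which lost its call under quantile normalization, and elongation factor 1-alpha (Cz16g05140) had one of 1.09 ± 0.15. The nucleolar gene with the largest rise, Cz10g07040, had 182, 174 and 176 FPKM at SS-12 h and 18.8, 18.3 and 20.3 FPKM at 0 h (log2 change 3.15 ± 0.06). Of 27 proteasome genes, which encode the complex that degrades tagged proteins, 18 rose and none fell (median 1.14), the largest being Cz01g17020 with a log2 change of 1.81 ± 0.10. Under quantile normalization the small subunit biogenesis count was 9 and the proteasome count 10. All 5 of these lists were chosen by the study on SS-6 h against the 0 h samples used here, so they are no independent evidence of direction.

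Of 12 abundant genes of protein folding and turnover, 3 rose and 1 fell, beside 18.1% and 19.6% of all 592 abundant genes. Counts this small were not tested against those shares, and the values below are those of single genes. HSP70 (Cz06g15020), a chaperone that holds unfolded chains, had 1253, 1155 and 1148 FPKM at SS-12 h and 334, 311 and 297 FPKM at 0 h (log2 change 1.91 ± 0.11). The HSP90-type chaperone HtpG (Cz02g06070) had a log2 change of 2.06 ± 0.10, and chaperonin GroES (Cz01g28150), the lid of the folding chamber, one of 1.604 ± 0.14. The ATP-binding subunit of a Clp protease (Cz10g08290), which feeds proteins into the protease, fell to 118 ± 6.54 FPKM at SS-12 h, against 284 ± 16.1 FPKM at 0 h (log2 change -1.26 ± 0.12).

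**Figure D3:**
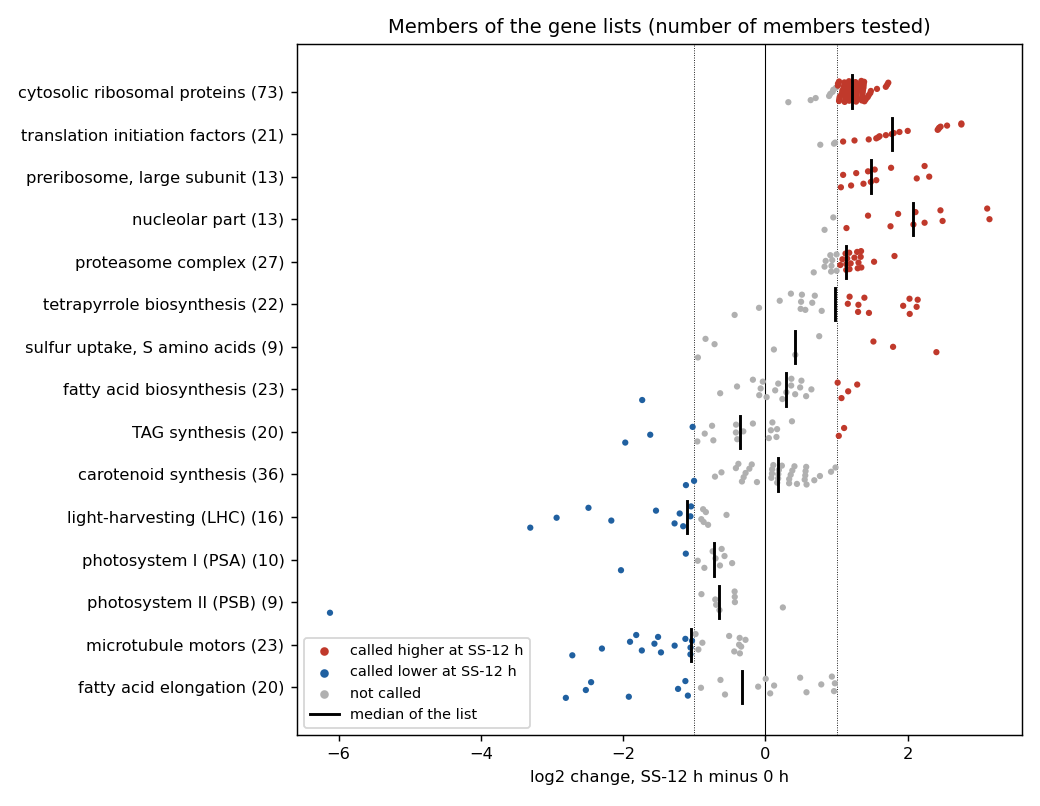
Log2 change, SS-12 h minus 0 h, of each member of 15 gene lists, with the number of members tested in brackets. Each point is 1 gene, red where called higher, blue where called lower and grey where not called, and black bars are list medians. The ribosomal protein members lie between 0.32 and 1.73, all above 0, and the LHC members between -3.31 and -0.55, all below 0.

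Sulfur metabolism was covered by 9 abundant genes picked by hand from the annotation, which may not be all of them. Of these, 3 rose and none fell, beside 18.1% and 19.6% of all 592 abundant genes. The 3 belong to the methionine and methyl cycle. Methionine synthase (Cz11g24160), which adds the methyl group to homocysteine, had 3049, 2771 and 2664 FPKM at SS-12 h and 553, 540.0 and 509 FPKM at 0 h, a log2 change of 2.40 ± 0.19 (adjusted p = 3.42e-08). Adenosylhomocysteinase (Cz01g01020), which recovers homocysteine after methyl transfer, averaged 1222 ± 29.9 FPKM at SS-12 h and 352 ± 7.56 FPKM at 0 h (log2 change 1.79 ± 0.08). S-adenosylmethionine synthetase, METM (Cz15g18200), averaged 1070.3 ± 67.9 FPKM at SS-12 h and 373 ± 8.80 FPKM at 0 h (log2 change 1.52 ± 0.12). No SS-12 h value of the 3 genes overlapped a value at 0 h, which held for 2936 of the 2942 called genes and 72.4% of all genes. The uptake and assimilation genes with a name were not called. Sulfate transporters Cz03g08060 and Cz03g08070 averaged 414 ± 21.2 and 337 ± 27.4 FPKM at SS-12 h, against 683 ± 71.2 and 606 ± 41.0 FPKM at 0 h, with log2 changes of -0.72 ± 0.10 and -0.84 ± 0.20. Cysteine synthase (Cz03g05100), which makes cysteine from sulfide, averaged 1025 ± 38.2 FPKM at SS-12 h and 767 ± 51.2 FPKM at 0 h (log2 change 0.42 ± 0.09). Names were mostly limited to genes abundant at 0 h, and other sulfate transporters were not identified here. Among 20 abundant redox and thiol proteins, 1 was called, whereas of all 592 abundant genes 18.1% rose and 19.6% fell. TRX3 (Cz03g29230), a thioredoxin, the small protein that reduces disulfide bonds, had 96.1, 102 and 86.7 FPKM at SS-12 h and 876, 827 and 841 FPKM at 0 h (log2 change -3.15 ± 0.11, adjusted p = 1.30e-11).

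In the pathway from acetyl-CoA to fatty acids, 4 of 23 genes rose and 1 fell, beside 7.42% and 11.9% of all genes, with a median log2 change of 0.29. The acyl carrier proteins, which hold the growing chain, were among the rises: ACP1 (Cz09g30220) averaged 1107 ± 55.9 FPKM at SS-12 h and 549 ± 46.2 FPKM at 0 h (log2 change 1.01 ± 0.14) and ACP2 (Cz07g17120) averaged 497 ± 23.5 FPKM at SS-12 h and 222 ± 16.8 FPKM at 0 h (log2 change 1.16 ± 0.15). ACP1 lost its call under quantile normalization, under rescaling to TPM and without 0 h replicate 1 or SS-12 h replicate 2, and ACP2 under quantile normalization. The ketoacyl-ACP reductases KAR3 (Cz10g18200) and KAR2 (Cz16g00050) had log2 changes of 1.29 ± 0.12 and 1.07 ± 0.38, of which that of KAR2, a gene at 6.64 ± 1.55 FPKM at SS-12 h, was not called without 0 h replicate 3 or without SS-12 h replicate 2. The single-chain acetyl-CoA carboxylase, ACCase (Cz19g10190), fell to 30.9 ± 2.04 FPKM at SS-12 h, against 105 ± 10.2 FPKM at 0 h (log2 change -1.73 ± 0.15). KAS I (Cz02g14160), which extends the chain, had 151, 188 and 140.2 FPKM at SS-12 h and 105, 95.5 and 102 FPKM at 0 h and was not called, with a log2 change of 0.65 ± 0.14.

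Of 11 desaturases, which place double bonds in fatty acids, FAD2 rose and 1 FAD5 gene fell, close to the 7.42% and 11.9% of all genes. FAD2 (Cz03g33220), an omega-6 desaturase, had 40.9, 51.6 and 40.5 FPKM at SS-12 h and 5.06, 4.48 and 4.98 FPKM at 0 h (log2 change 2.95 ± 0.28, adjusted p = 3.48e-07), and the FAD5 gene Cz06g00170 averaged 7.83 ± 0.58 FPKM at SS-12 h and 26.1 ± 1.62 FPKM at 0 h (log2 change -1.62 ± 0.26). The list for unsaturated fatty acids, chosen by the study with the same 0 h samples, held 22 genes, of which 10 rose and 5 fell, and 3 fell under quantile normalization. Of the 20 genes of the fatty acid elongation list, 7 fell and none rose, among them the ketoacyl-CoA synthases LCKAS2 (Cz12g02090), with 57.6, 63.3 and 65.5 FPKM at SS-12 h and 363, 340.4 and 328 FPKM at 0 h (log2 change -2.45 ± 0.20), and LCKAS3 (Cz10g26200), with a log2 change of -1.92 ± 0.28.

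Of 20 genes of TAG synthesis, 2 rose and 3 fell (median log2 change -0.35), close to the 7.42% and 11.9% of all genes. MLDP (Cz04g29220), the major protein that coats algal lipid droplets, had 461, 441 and 386 FPKM at SS-12 h and 206, 193 and 197 FPKM at 0 h, a log2 change of 1.105 ± 0.15 that lost its call under quantile normalization. Phosphatidate phosphatases release diacylglycerol, the substrate of the last step. PAP3 (Cz16g11240) rose (log2 change 1.03 ± 0.25) and PAP1 (Cz05g23060) fell (-1.02 ± 0.12). Both were close to the size needed for a call: PAP3 was not called under quantile normalization, under rescaling to TPM or without 0 h replicate 3 or SS-12 h replicate 2, and PAP1 was not called under median-ratio scaling, under quantile normalization or without SS-12 h replicate 1 or 3. The last step of TAG synthesis is made by diacylglycerol acyltransferases. The type 2 members DGTT6 (Cz15g22140) and DGTT1 (Cz06g35060) fell, to 7.10 ± 0.68 and 11.9 ± 0.93 FPKM at SS-12 h, against 30.8 ± 3.29 and 38.6 ± 1.01 FPKM at 0 h (log2 changes -1.97 ± 0.23 and -1.62 ± 0.16). DGTT5 (Cz09g27290) averaged 51.2 ± 2.68 FPKM at SS-12 h and 49.7 ± 5.25 FPKM at 0 h (adjusted p = 0.723). Diacylglycerol kinase (Cz11g25100), which turns diacylglycerol back into phosphatidate, had 51.4, 59.1 and 52.1 FPKM at SS-12 h and 346, 359 and 336 FPKM at 0 h (log2 change -2.66 ± 0.20, adjusted p = 1.96e-08).

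Of 36 genes of carotenoid synthesis, none rose and 2 fell (median log2 change 0.18), beside 7.42% and 11.9% of all genes. ZEP (Cz07g30060), which turns zeaxanthin towards violaxanthin, averaged 31.9 ± 2.73 FPKM at SS-12 h and 70.5 ± 7.56 FPKM at 0 h (log2 change -1.12 ± 0.15). BKT2 (Cz04g11250), one of the ketolases, averaged 5.66 ± 1.72 FPKM at SS-12 h and 12.0 ± 0.56 FPKM at 0 h, a log2 change of -1.004 ± 0.21 that was not called under median-ratio scaling, under quantile normalization or without replicate 1 of either group. In glycolysis, 5 of 34 genes rose and 2 fell, beside the same shares of all genes. Single isoforms moved in opposite directions: among the pyruvate kinases PK3 (Cz16g00040) rose to 109 ± 5.59 FPKM at SS-12 h, against 43.9 ± 0.81 FPKM at 0 h (log2 change 1.29 ± 0.08), while PK8 (Cz10g06190) and PK6 (Cz01g21060) fell, with log2 changes of -1.18 ± 0.13 and -1.09 ± 0.12. PGAM3 (Cz04g11130), a phosphoglycerate mutase, had the largest rise of the list, 1.48 ± 0.15. Under quantile normalization 3 of the glycolysis genes were called higher.

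Genes of microtubules and their motors were lower or not called. Of 23 genes listed for microtubule motor activity, 13 fell, none rose and all had a negative log2 change (median -1.05), and of 19 in a second microtubule list 9 fell and none rose (median -0.98). The motor list was chosen on the SS-6 h and 0 h samples, the other on samples not compared here. A gene described as a kinesin (Cz03g24220), a motor that walks along microtubules, had 0.31, 0.25 and 0.52 FPKM at SS-12 h and 8.66, 8.55 and 6.64 FPKM at 0 h (log2 change -2.71 ± 0.16). Tubulin alpha (Cz11g05030), a building block of the microtubule, had 399, 389 and 384 FPKM at SS-12 h and 887, 888 and 878 FPKM at 0 h (log2 change -1.18 ± 0.22, adjusted p = 2.44e-04), while a second tubulin alpha gene (Cz07g00160) averaged 1391 ± 72.6 FPKM at SS-12 h and 1309 ± 19.5 FPKM at 0 h and was not called. Many of the motor genes are of low FPKM, and 32.3% of all genes between 1 and 10 FPKM were called lower, beside 11.9% of all genes tested.

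The remaining large falls of named genes were of mixed function. A trehalose 6-phosphate synthase (Cz06g22210), of the synthesis of the sugar trehalose, had 35.8, 41.5 and 40.6 FPKM at SS-12 h and 608, 514 and 503 FPKM at 0 h (log2 change -3.75 ± 0.31). A beta-mannosidase (Cz06g12190), which cleaves mannose from sugar chains, averaged 17.5 ± 2.17 FPKM at SS-12 h and 193 ± 30.3 FPKM at 0 h (log2 change -3.38 ± 0.32), and a NIP-type aquaporin (Cz09g23310), a membrane channel, averaged 18.8 ± 1.80 FPKM at SS-12 h and 289 ± 12.1 FPKM at 0 h (log2 change -3.88 ± 0.20). A gene described as a His-Me finger endonuclease (Cz11g28160) had 0.76, 1.1 and 0.90 FPKM at SS-12 h and 48.3, 43.8 and 40.3 FPKM at 0 h (log2 change -4.56 ± 0.20). That all values of these 4 genes at SS-12 h lay below those at 0 h was a condition for naming them.

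Among the remaining large rises, several genes were near 0 at the start. Those with a description were named through the same list of large SS-6 h changes, which shares the 0 h samples. A gene described as cinnamoyl-CoA reductase (Cz07g07130) had 40.7, 55.0 and 40.4 FPKM at SS-12 h and 0.72, 0.52 and 1.45 FPKM at 0 h (log2 change 4.63 ± 0.18). One described as an RNA polymerase (Cz07g28210) averaged 22.3 ± 5.06 FPKM at SS-12 h and 0.39 ± 0.17 FPKM at 0 h (log2 change 4.05 ± 0.21), one as a grain length and weight protein (Cz05g21300) averaged 34.0 ± 4.84 FPKM at SS-12 h and 2.42 ± 1.005 FPKM at 0 h (3.39 ± 0.30), and one as an inner membrane protein (Cz01g32260) averaged 12.6 ± 3.79 FPKM at SS-12 h and 0.36 ± 0.16 FPKM at 0 h (3.29 ± 0.29). The largest rises of genes with no name or description were in Cz03g06020 and Cz03g06010, again consecutive IDs, with 141, 81.9 and 133 FPKM and 134, 96.4 and 115 FPKM at SS-12 h, against 0.40, 0.46 and 4.47 FPKM and 0.55, 0.84 and 3.48 FPKM at 0 h. Replicate 3 was the highest 0 h sample for both. The largest falls without a name were in Cz12g18050, with a log2 change of -5.43 ± 0.26, and UNPLg00344, with one of -5.24 ± 0.39. Of all 2942 called genes, 2642 had at least 5 FPKM in the higher group and no overlap between the groups, and only 227 of these carry a name or description. A further 12 genes were listed in every SS-12 h sample and in no 0 h sample, with means of at most 4.23 FPKM, and 45 in every 0 h sample and in no SS-12 h sample, with means of at most 30.0 FPKM.

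The 12 h values were also set against those at SS-6 h and SS-24 h, which asks whether the change at 12 h differed in size from the changes at those times. Against SS-6 h, calls at SS-12 h were upward in 1533 genes (10.1%) and downward in 788 (5.18%). One SS-6 h library, replicate 1, stood apart from the other two: its relative depth was 0.753, against 0.92 and 0.94 in replicates 2 and 3, and cytosolic ribosomal proteins held 15.69% of its summed FPKM, against 9.95 and 9.03%. Without it 1438 genes were higher and 918 lower. The median gene was 0.18 higher on the log2 scale at SS-12 h, and 66% of calls were upward, but after median-ratio scaling, which brought that median to 0.03, the counts were 1238 and 1043, and after quantile normalization 935 and 883. Against SS-24 h, calls at SS-12 h were upward in 1328 genes (8.73%) and downward in 1701 (11.2%).

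Relative to SS-6 h, all 16 LHC genes were called higher at SS-12 h, under median-ratio scaling, TPM and quantile normalization too, and relative to SS-24 h 1 of them was lower. Of all 592 abundant genes, 89 were higher relative to SS-6 h and 61 were lower relative to SS-24 h. LHC16 (Cz13g03240) averaged 8985, 401, 1176 and 3320.0 FPKM at 0, 6, 12 and 24 h. In fatty acid biosynthesis 14 of 23 genes were lower at SS-12 h relative to SS-6 h and none higher, and KAS I (Cz02g14160) averaged 101, 1247, 159.7 and 181 FPKM in the same order. None of the 73 cytosolic ribosomal proteins was called between SS-12 h and SS-6 h under any of these scalings (log2 differences of -0.81 to 0.32). Limma's adjusted p was at most 0.05 in 2 of the 73, and its unadjusted p was under 0.05 upward in 1 and downward in 1. The share of the 73 in the summed FPKM at SS-12 h, 11.86 to 13.29%, lay below that of SS-6 h replicate 1 and above those of replicates 2 and 3. With that library left out, none was called either, and the median of the log2 differences was 0.47, compared with 0.15 over all 3 libraries. Relative to SS-24 h 44 were higher at SS-12 h and 1 was lower, beside 116 and 61 of all 592 abundant genes. Rescaling to TPM brought the 44 to 26 and quantile normalization to 6. Of the 22 tetrapyrrole genes, 17 were higher at SS-12 h relative to SS-6 h and 21 relative to SS-24 h, and none was lower in either comparison. Tubulin alpha (Cz11g05030) was lowest at 6 h and averaged 884, 70.6, 391 and 1055 FPKM at 0, 6, 12 and 24 h, and of the motor list 9 genes were higher at SS-12 h relative to SS-6 h and 8 were lower relative to SS-24 h. Over all genes, 10.1% were higher and 5.18% lower relative to SS-6 h, and 8.73% and 11.2% relative to SS-24 h.

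A set of 93 genes was called upward at SS-12 h against each of 0 h, SS-6 h and SS-24 h, and 4 of them carry a name or description. Flavodoxin (Cz14g01090) averaged 8.36, 828, 2396 and 31.6 FPKM at 0, 6, 12 and 24 h, and LHC11 (Cz14g01080) 3.80, 227, 806 and 16.9 FPKM. A TIP-type aquaporin (Cz05g31250), a water channel of the vacuole in plants, had 771, 775 and 815 FPKM at SS-12 h and 229, 202 and 227 FPKM at 0 h, and averaged 59.6 FPKM at SS-6 h and 249.7 FPKM at SS-24 h. Another 53 genes were called downward against all 3, 6 of them with a name or description. The 53 became 82 without SS-6 h replicate 1. Diacylglycerol kinase (Cz11g25100) averaged 347, 123, 54.2 and 287 FPKM at 0, 6, 12 and 24 h, a gene described as the transcription factor Pur-alpha (Cz14g06030) 503, 216, 98.5 and 308 FPKM, and DGTT6 (Cz15g22140) 30.8, 22.6, 7.10 and 53.2 FPKM.

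**Figure D4:**
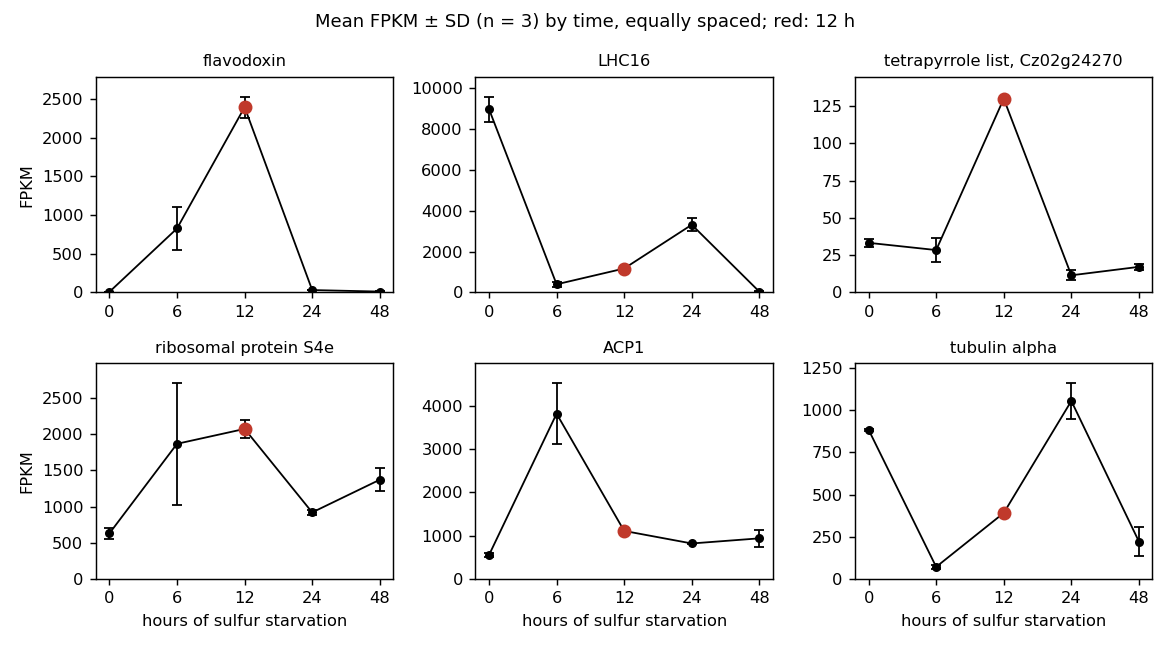
Mean FPKM of 6 genes at 0, 6, 12, 24 and 48 h of sulfur starvation, equally spaced on the horizontal axis, with bars of 1 SD over 3 replicates and the 12 h mean in red. Flavodoxin and the tetrapyrrole list gene Cz02g24270 are highest at 12 h, LHC16 and tubulin alpha stand between their 6 h and 24 h means, and ACP1 stands below its 6 h mean.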

How the data were processed

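Strain ATCC30412 was sampled in 6 groups of 3, and samples were grouped by title and time label. Per the study's methods, messenger RNA was selected by its poly-A tail and read single-end over 50 bases. The authors filtered the reads, aligned them with HISAT to the genome and with Bowtie2 to the reference genes, and computed FPKM with RSEM, which the deposited tables give per gene and sample. Tool versions and the genome build are not given in the sources used here. The authors' own fold changes came from DESeq2 on counts, which were not analysed here. A gene that a sample did not list was taken as 0, though an unlisted value can also be a failed estimate. No absolute depth can be had from FPKM, and the spread between replicates was the measure of precision. The study also lists clean reads and mapping ratios for each library, which were not used here. In that list SS-6 h replicate 1 has the lowest share of reads mapped to genes.

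For the tests, limma 3.58.1 in R 4.3.3 was run on log2(FPKM + 1) with all 18 samples in the model, 1 mean per group and a variance trend, giving 12 residual degrees of freedom. SS-12 h was compared with 0 h, SS-6 h and SS-24 h, with p adjusted by Benjamini-Hochberg over 15220 genes. The fit was tested on simulated data. Summaries used Python 3.11.15, pandas 2.3.3 and numpy 2.4.6, and plots used matplotlib 3.10.9. The alternatives were pseudocounts of 0.1 and 0.5 FPKM, a mean of at least 1 FPKM, median-ratio scaling, TPM, quantile normalization, the 6 samples alone, a replicate block, no trend, and each replicate left out.

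Genes were named if called within one of 37 lists, among the 10 largest rises and 10 largest falls with a name, at least 5 FPKM in the higher group and no overlap, among the 2 largest each way without a name, or among the 3 largest each way called against all 3 other times, or if called in a list against SS-6 h or SS-24 h. Uncalled list members are given as values. The members and lists were chosen with earlier results of these data known. Lists came from the study's tables or from the annotation of its abundant genes. Those of sulfur metabolism, redox and thiol proteins, protein folding, starch, carbon fixation enzymes and early light-induced proteins were picked by hand.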

Additional observations from a re-analysis of the deposited data

Results flagged for a closer look

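Differences between the 12 h change and the changes at other times were tested directly, as SS-12 h minus SS-6 h and SS-12 h minus SS-24 h in the same limma fit. Calls at SS-12 h were upward in 1533 genes and downward in 788 against SS-6 h, and upward in 1328 and downward in 1701 against SS-24 h. The upward excess against SS-6 h was smaller under median-ratio scaling (1238 and 1043) and quantile normalization (935 and 883). No formal test of single samples was run on groups of 3, but SS-6 h replicate 1 stood apart in relative depth and ribosomal protein share, and without it the counts against SS-6 h were 1438 and 918.

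Among lists, the following calls stood out. Relative to SS-6 h, all 16 LHC genes were higher at SS-12 h and 14 of 23 genes of fatty acid biosynthesis were lower. Relative to SS-24 h, 21 of 22 tetrapyrrole genes and 44 of 73 cytosolic ribosomal proteins were higher at SS-12 h, although 26 of the 73 were called after rescaling to TPM and 6 under quantile normalization. Against SS-6 h and SS-24 h, 10.1% and 8.73% of all genes were called higher and 5.18% and 11.2% lower. The LHC and ribosomal protein lists were drawn from the 592 abundant genes. Among these 592, upward calls numbered 89 against SS-6 h and 116 against SS-24 h. Downward calls numbered 46 and 61 in the same order.

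Flavodoxin (Cz14g01090) had a log2 difference of 1.58 ± 0.20 (SE) between SS-12 h and SS-6 h (adjusted p = 7.93e-06), with a mean of 2396 FPKM at SS-12 h and 828 FPKM at SS-6 h. LHC11 (Cz14g01080) had a log2 difference of 5.50 ± 0.14 (SE) between SS-12 h and SS-24 h (adjusted p = 6.34e-13), with means of 806 FPKM at SS-12 h and 16.9 FPKM at SS-24 h.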

How the results depend on the processing

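Under 16 alternatives, the number of genes higher at SS-12 h than at 0 h stayed between 976 (rescaling to TPM) and 1280 (quantile normalization) and the number lower between 1413 (quantile normalization) and 2292 (pseudocount of 0.1 FPKM), within 1.5 times the reported 1129 and 1813. Leaving out each replicate gave 1085 to 1177 higher and 1719 to 1876 lower. Quantile normalization moved the following by more than that: genes higher than at SS-6 h to 935, and, against 0 h, cytosolic ribosomal proteins to 11, proteasome genes to 10, small subunit biogenesis genes to 9, glycolysis genes higher to 3 and unsaturated fatty acid genes lower to 3. Ribosomal proteins higher against SS-24 h, 44 as reported, came to 6 under quantile normalization and 26 after rescaling to TPM. Among counts under 5, quantile normalization brought PSA genes lower against 0 h to 5 (2 as reported) and LHC genes lower against SS-24 h to 4 (1 as reported). It also brought the median of genes over 1000 FPKM to 0.46, against 0.94 as reported, and the cause was not tested. Of 19 list counts of at least 5 against 0 h, the other 14 stayed within 1.5 times under each alternative. The 53 genes lower than at all 3 other times became 101 with a pseudocount of 0.1 FPKM and 82 without SS-6 h replicate 1. Of 75 named genes called, 65 kept their call under every alternative run and none changed sign, and the other 10 are given with the settings where each is described. The median log2 change against 0 h of genes with a mean of at least 1 FPKM was -0.14 after rescaling to TPM and -0.06 without it.

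The replicate numbers were shared between groups. Same-numbered SS-12 h and 0 h samples had deviation correlations of -0.163, 0.133 and 0.129, and not every sample correlated best with its own number, so the numbers were not taken as pairs. A replicate block gave 1128 genes higher and 1813 lower in the fit on 18 samples and 1128 and 1821 in the fit on 6. For lack of counts, the share of the spread that comes from depth could not be separated, and changes of genes near 0 are the least certain.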

Other observations

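Other lists of central metabolism had few calls against 0 h. In the oxidative pentose phosphate list none of 15 genes was called by limma (median log2 change 0.40). Of the 15, 11 had an adjusted p of at most 0.05, with changes too small for a call. The unadjusted p was under 0.05 upward in 10 and downward in 2. In the TCA cycle list 1 of 17 rose and none fell, and in the list of acetyl-CoA sources 1 of 13 fell and none rose. Of all genes, 7.42% rose and 11.9% fell. The 1 rise was MDH (Cz02g21340), a malate dehydrogenase, which averaged 528 ± 7.12 FPKM at SS-12 h and 251 ± 0.38 FPKM at 0 h (log2 change 1.07 ± 0.08) and was not called under rescaling to TPM or quantile normalization. The 1 fall was ALDH2 (Cz03g20090), an aldehyde dehydrogenase, with 105, 110.5 and 98.1 FPKM at SS-12 h and 276, 265 and 240.2 FPKM at 0 h (log2 change -1.31 ± 0.17). Of 5 abundant genes of starch metabolism, 1 rose, beside 18.1% of all 592 abundant genes. This glycogen phosphorylase (Cz07g16020), which releases glucose units from glucan, averaged 603 ± 22.8 FPKM at SS-12 h and 279.7 ± 15.5 FPKM at 0 h (log2 change 1.105 ± 0.17). It was not called under quantile normalization.

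In the carbon fixation list chosen by the study on the return of sulfur, which is wider than the 12 cycle enzymes above, 3 of 25 genes rose and 6 fell. In its ascorbate list 4 of 24 fell and none rose. Of all genes, 7.42% rose and 11.9% fell. RCA2 (Cz13g02230), the Rubisco activase, averaged 927 ± 17.4 FPKM at SS-12 h and 1621 ± 38.1 FPKM at 0 h (log2 change -0.81 ± 0.07), which was too small for a call. A gene of both microtubule lists without a description, Cz10g09190, averaged 62.7, 1.63, 22.04 and 69.8 FPKM at 0, 6, 12 and 24 h, with the same order of times as tubulin alpha.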
